A study of Arabidopsis thaliana with 2 samples.

Results

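The 10 genes described here make, sense and transmit the growth hormone gibberellin in *Arabidopsis*, and were chosen by gene identifier as the late synthesis oxidases GA20ox1 (AT4G25420), GA20ox2 (AT5G51810) and GA3ox1 (AT1G15550), the receptors GID1A (AT3G05120), GID1B (AT3G63010) and GID1C (AT5G27320), and the DELLA repressors RGA (AT2G01570), GAI (AT1G14920), RGL1 (AT1G66350) and RGL2 (AT3G03450). They are 10 of the 36917 gene identifiers in the files, and the rule names them by identifier alone, although earlier results of these data were known when it was set. All 10 had unique molecular identifiers (UMIs, each counting 1 captured RNA molecule) in both libraries, and 8 of the 10 reached 200 UMIs over both libraries together. GA20ox2 and GA3ox1 did not, and are given by their counts.

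Single-nucleus RNA sequencing was done on main inflorescences of Ler plants with the genotype pAP1:AP1-GR ap1-1 cal-1, grown in long days and treated daily with dexamethasone. These plants lack working AP1 and CAL, so that their inflorescences pile up meristems, and they carry AP1 fused to a glucocorticoid receptor domain under the AP1 promoter. Dexamethasone lets the fusion protein enter the nucleus, and many flowers then start to form together. The day 4 library (stage 5 flowers) and the day 3 library (stage 4 flowers) each came from pooled inflorescences, and both carry the same mutations, the same transgene and the same treatment. There is 1 library per day, so no difference between days has a replicate check. The day 4 library was sequenced on another Illumina platform, after other numbers of PCR cycles, than the day 3 library, and day and library preparation cannot be told apart. The protocol text of the day 3 sample also names the fourth day, while its title gives day 3, which was followed here.

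After removal of organelle genes and of barcodes with fewer than 1000 nuclear genes, 4545 nuclei with 10202530 UMIs remained at day 4 and 4397 nuclei with 11083512 UMIs at day 3. The median nucleus held 1805 UMIs at day 4 and 1842 at day 3, and 6 barcodes occurred in both libraries. The sample labels name no tissue, and clusters were named from 10 marker lists chosen for this purpose. Every marker of these lists was detected, apart from 1 of 12 phloem markers at day 4. Clustering each library alone gave 12 clusters at day 4 and 11 at day 3, which were joined into 7 classes named by their markers. At day 3, 411 nuclei stayed without a name, against 0 at day 4. They were deep, with a median of 3191 UMIs, and held 1870458 of the day 3 UMIs. In class ratios of day 3 they count among the other nuclei, so the classes of the 2 days differ in this respect.

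Active gibberellin is made from a plastid precursor by a chain of enzymes, of which the GA20-oxidases and then the GA3-oxidases carry out the last steps in the cytosol. When gibberellin binds a GID1 receptor, the receptor takes hold of a DELLA protein, and an F-box protein such as SLY1 marks the DELLA protein for destruction. DELLA proteins otherwise hold back growth, and in flowers they limit the elongation of stamens and petals. In shoot meristems, KNOX homeodomain proteins such as STM and KNAT1 are known to keep gibberellin synthesis low and its inactivation high.

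DELLA proteins take their name from a short run of residues near their amino end, in the region that the receptor holds. The coding stretches around that run are shown because the gai-1 allele, which makes plants insensitive to gibberellin, deletes this region. They lie near the start of the coding sequences, while the reads come from the 3′ ends of transcripts. The stretches therefore do not show how well reads of the 4 genes can be told apart. Capitals mark the 4 codons for aspartate, glutamate, leucine and leucine, and the sequences are RefSeq coding sequences of the TAIR10.1 assembly, which is the Columbia accession and not Ler.
GAI: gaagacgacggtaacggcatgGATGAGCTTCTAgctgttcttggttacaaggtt
RGA: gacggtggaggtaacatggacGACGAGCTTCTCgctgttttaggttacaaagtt
RGL1: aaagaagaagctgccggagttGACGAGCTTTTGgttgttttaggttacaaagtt
RGL2: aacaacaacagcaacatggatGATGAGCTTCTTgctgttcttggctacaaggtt
Each stretch is 54 bases long. It starts at base 61 of the GAI coding sequence (chromosome 1), at base 109 in RGA (chromosome 2), at base 73 in RGL1 (chromosome 1) and at base 109 in RGL2 (chromosome 3). Against GAI, 16 of the 54 bases differ in RGA, 16 in RGL1 and 14 in RGL2, and within the capitals 2 bases differ in RGA, 3 in RGL1 and 1 in RGL2. Over whole transcripts, the longest stretch that a pair of these genes shares base for base is 30 bases, in GAI and RGA. Among the receptors it is 35 bases, in GID1A and GID1C, and for the GA20-oxidase pair it is 29 bases. The coding lengths are 1602 bases in GAI, 1764 in RGA, 1536 in RGL1 and 1644 in RGL2.

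Levels are given as UMIs of a gene per 1000000 nuclear-gene UMIs of the same nuclei (CPM). The reads come from the 3′ ends of transcripts and were not divided by length. Levels are compared within a gene. Where genes are set side by side, as in the receptor and DELLA shares, the values describe counted UMIs only. All intervals are 95% and cover counting error only: exact Poisson intervals for CPM, exact binomial intervals for shares, and conditional binomial intervals for log2 ratios, which were taken after adding 1 CPM to each level. No test across samples was possible, and nuclei are not replicates.

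Between days, no member with at least 200 UMIs passed 1.5-fold, and neither did most genes with that many UMIs. At least 1.5-fold higher at day 4 than at day 3 were 0 of the 8 members with at least 200 UMIs, against 4.36% of the 14740 genes with that many UMIs, and 0 of 8 were at least 1.5-fold lower, against 3.30% of genes (7.66% in either direction). As log2 of day 4 over day 3, the 8 members had a median of 0.03, and all those genes a median of 0.08. The members' log2 ratios ran between -0.31 and 0.36, with 4 of 8 above the median of all genes. The direction of the gene-wide split depends on the scaling: of the genes past 1.5-fold, 56.9% were higher at day 4 with scaling by total UMIs, 32.5% with TMM scaling and 28.9% with median-of-ratios scaling. Scaling also moved members: the interval of GA20ox1 ran from -0.02 to 0.58 and that of GID1A from -0.06 to 0.27 with TMM scaling, both across 0, and that of GID1B from -0.44 to -0.06, below 0. Median-of-ratios scaling moved these 3 genes to the same sides. The interval of RGA lay below 0 with total UMIs (-0.31 to -0.04), TMM (-0.40 to -0.13) and median-of-ratios scaling (-0.41 to -0.15). That of RGL1 did so too (-0.61 to -0.02, -0.69 to -0.10 and -0.71 to -0.12). Intervals of GAI, RGL2 and GID1C included 0 with each scaling.

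**Figure D1:**
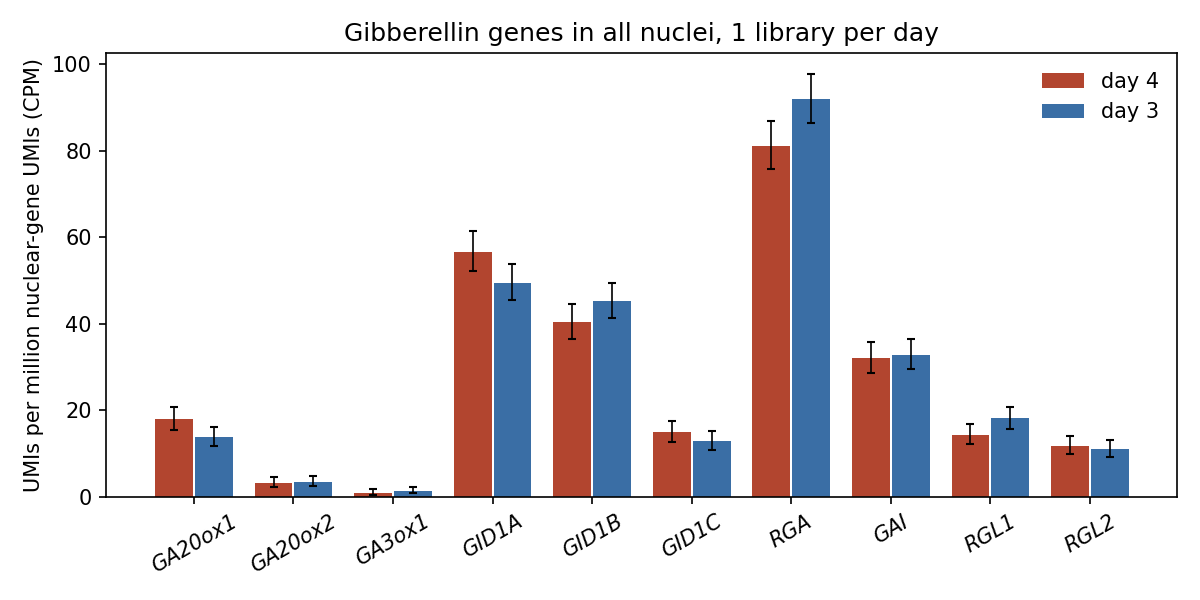
Level of each of the 10 genes in all nuclei, in UMIs per 1000000 nuclear-gene UMIs (CPM), with the day 4 library left of the day 3 library. Error bars are exact 95% Poisson intervals of 1 library each. RGA stood at 81.2 CPM at day 4 and 91.8 CPM at day 3, and no gene with at least 200 UMIs differed by 1.5-fold between days.

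GA20ox1, the GA20-oxidase known to act mainly in stem and flower growth, had 184 UMIs (18.0 CPM, 15.5 to 20.8) at day 4 and 153 UMIs (13.8 CPM, 11.7 to 16.2) at day 3, a log2 ratio of 0.36 (0.06 to 0.66). Its UMIs were gathered in few nuclei. At each day 106 nuclei held a UMI of it, which is 2.33% of nuclei at day 4 and 2.41% at day 3. Of its UMIs, 45.7% at day 4 lay in 20 nuclei with 3 or more each, and 30.1% at day 3 lay in 11 such nuclei. The largest number in 1 nucleus was 10 at day 4 and 7 at day 3. The ratio between days moved with the depth of the nuclei: it was 0.01 (-0.43 to 0.44) with all nuclei thinned to 1000 UMIs, and 0.70 (0.32 to 1.09) in nuclei with at least 1500 genes. After thinning, 1.30% of nuclei at day 4 and 1.48% at day 3 showed the gene.

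Among the 8 members with at least 200 UMIs, GA20ox1 had the largest log2 ratios of a class over the other nuclei. At day 4 it reached 52.1 CPM (74 UMIs in 37 of 612 nuclei) in procambium- and phloem-like nuclei and 12.5 CPM in the other nuclei, a log2 ratio of 1.97 (1.54 to 2.39). At day 3 the class of that name stood at 29.1 CPM (41 UMIs) and the other nuclei at 11.6 CPM, a log2 ratio of 1.26 (0.73 to 1.76). The clusters behind the name differed between days. At day 4 it joined phloem-named clusters of 493 and 62 nuclei with a procambium-named cluster of 57. At day 3 it was a procambium-named cluster of 543 nuclei. A day 3 cluster of 62 nuclei shared leading genes such as AT2G39850, PWD and UMAMIT23 with the smaller phloem-named cluster of day 4. It had no name and was counted among the other nuclei. The cortex- and mesophyll-like nuclei were also high at day 3, with 31.7 CPM against 9.97 CPM in the other nuclei (log2 1.57, 1.11 to 2.03), while at day 4 they had 21.5 CPM against 17.3 CPM (log2 0.30, -0.22 to 0.79). The other classes had lower levels than these 2 classes at day 3 and at day 4, in part narrowly. S phase-like nuclei at day 4 and xylem-like nuclei at day 3 were still above the level of all nuclei (18.0 CPM at day 4, 13.8 CPM at day 3). Floral meristem-like nuclei had 3.72 CPM at day 4 (4 UMIs) and 6.60 CPM at day 3 (3 UMIs), and epidermis-like nuclei 7.56 CPM at day 4 and 6.63 CPM at day 3. G2/M-like nuclei had 10.4 CPM at day 4 and 3.09 CPM at day 3. S phase-like nuclei had 19.8 CPM at day 4 and 6.93 CPM at day 3, and xylem-like nuclei 10.4 CPM at day 4 and 17.9 CPM at day 3. After thinning to 1000 UMIs per nucleus, the share of nuclei with a GA20ox1 UMI at day 4 was 4.90% in procambium- and phloem-like nuclei (median 1788 UMIs before thinning) and 0.350% in epidermis-like nuclei (median 1733 UMIs). Xylem-like nuclei (median 1956 UMIs) had the lowest share, 0 of 270, which allows up to 1.36%. Before thinning the shares were 6.05% in procambium- and phloem-like, 1.17% in epidermis-like and 1.48% in xylem-like nuclei. Ordering the classes by level, neighbours were apart beyond counting error at day 4 between procambium- and phloem-like and cortex- and mesophyll-like nuclei. S phase-like and G2/M-like nuclei were also apart at day 4, but narrowly (log2 0.86, 0.02 to 1.69). No neighbours were apart at day 3. The intervals take each UMI as independent. As the GA20ox1 UMIs were gathered in few nuclei, the intervals of this gene are likely too narrow.

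The class that held GA20ox1 depended on how the nuclei were clustered. With the gibberellin genes kept among the variable genes, the log2 ratio of the procambium- and phloem-like class was -0.27 at day 4 and that of the xylem-like class 1.68. Taken as 1 vascular-like class, these nuclei stood at 1.54 (1.12 to 1.95) at day 4 and 1.13 (0.64 to 1.59) at day 3 in that clustering, and at 1.53 at day 4 and 1.13 at day 3 in the clustering used above. With both libraries clustered together, its highest level was in cluster 6 of 12, which carried too few markers of any list for a name. That cluster was singled out after its values were seen. It held 347 nuclei at day 4 and 310 at day 3, and its leading genes include MES17, GSTU20, FRD3, DES1, CSLA10, ZPR1 and AAP6. GA20ox1 stood there at 98.7 CPM against 11.6 CPM in the other nuclei at day 4 (log2 2.98, 2.55 to 3.40), and at 64.5 CPM against 10.2 CPM at day 3 (log2 2.54, 2.03 to 3.03). The cluster thus held 40.2% of the GA20ox1 UMIs in 7.63% of nuclei at day 4, and 30.7% in 7.05% of nuclei at day 3. It took in 54.6% of the day 4 nuclei of the largest procambium- and phloem-like cluster and 42.7% of those of day 3. Among the 8 members, 1 (GA20ox1) was at least 1.5-fold higher in the cluster at each day, against 8.31% of genes at day 4 and 9.82% at day 3. At each day 1 member (RGL2) was at least 1.5-fold lower, against 13.9% of genes at day 4 and 13.7% at day 3, but it rested on 3 UMIs at day 4 and 4 at day 3. KNOX transcripts were higher in the cluster than outside it. STM stood at 231 CPM against 125 CPM at day 4 and at 281 CPM against 144 CPM at day 3, and KNAT1 at 482 CPM against 252 CPM at day 4 and at 360 CPM against 193 CPM at day 3. GASA14, a gene of a gibberellin-regulated family, had 252 CPM against 91.3 CPM at day 4 (log2 1.46, 1.22 to 1.68) and 355 CPM against 121 CPM at day 3 (log2 1.54, 1.34 to 1.73). GASA4, of the same family, was lower in the cluster, at 575 CPM against 638 CPM at day 4 (log2 -0.15, -0.29 to -0.01) and 523 CPM against 641 CPM at day 3 (log2 -0.29, -0.45 to -0.14).

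**Figure D2:**
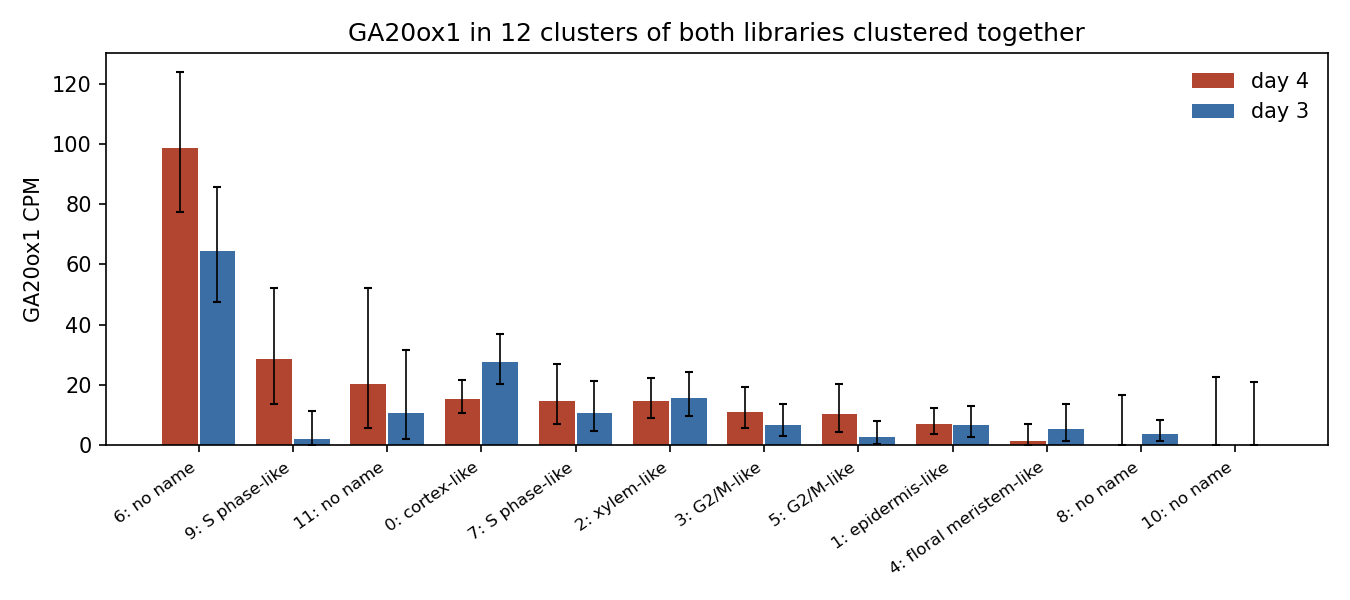
GA20ox1 level (CPM) in each of the 12 clusters of both libraries together, with day 4 left of day 3 and exact 95% Poisson intervals. Cluster 6 stands above the other clusters, at 98.7 CPM at day 4 and 64.5 CPM at day 3.

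GA20ox2, the second oxidase of this step with a known role in flower and fruit growth, had 33 UMIs at day 4 and 39 at day 3 (3.23 CPM at day 4 and 3.52 CPM at day 3, log2 ratio -0.09). At day 4 no class held more than 9 of its UMIs, and at day 3 the largest count was 9 among the named classes and 10 in the unnamed nuclei. GA3ox1, the enzyme that makes the bioactive form, was rarer still, with 10 UMIs in 5 nuclei at day 4 and 16 UMIs in 12 nuclei at day 3. At day 4 its UMIs lay in cortex- and mesophyll-like nuclei (5 UMIs in 4 nuclei) and in 1 S phase-like nucleus (5 UMIs). At day 3, 12 of the 16 lay in 8 cortex- and mesophyll-like nuclei. It was at 0 UMIs in 5 of 7 classes at day 4 and in 4 of 7 at day 3, where 3 UMIs would have been 1.36 to 4.44 CPM at day 4 and 1.32 to 6.60 CPM at day 3, so that an absence is not shown at this depth. In barcodes of at most 100 UMIs at day 3, which hold free RNA, 7 GA3ox1 UMIs were counted (5.88 CPM, 2.36 to 12.1), above the 1.44 CPM of the nuclei.

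Of the receptor transcripts, GID1A had the smallest fold between its highest and lowest class level. GID1A had 578 UMIs (56.7 CPM, 52.1 to 61.5) at day 4 and 548 UMIs (49.4 CPM, 45.4 to 53.8) at day 3, a log2 ratio of 0.19 (0.02 to 0.36). Its class levels ran between 44.4 and 69.7 CPM at day 4 and between 37.4 and 63.9 CPM at day 3, and no classes next to each other in its order were apart. Against the other nuclei, cortex- and mesophyll-like nuclei were higher at day 4 (log2 0.30, 0.01 to 0.59) and at day 3 (log2 0.45, 0.16 to 0.74). At day 4 procambium- and phloem-like nuclei were higher (log2 0.35, 0.03 to 0.66) and G2/M-like nuclei lower (log2 -0.39, -0.71 to -0.08). For both of the latter classes the day 3 interval included 0.

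GID1B, a receptor with higher affinity for gibberellin than its paralogues in biochemical work, had 412 UMIs (40.4 CPM, 36.6 to 44.5) at day 4 and 502 UMIs (45.3 CPM, 41.4 to 49.4) at day 3, a log2 ratio of -0.16 (-0.35 to 0.02). It was higher in floral meristem-like nuclei, with 62.4 CPM against 37.8 CPM in the other nuclei at day 4 (log2 0.71, 0.32 to 1.08) and 87.9 CPM against 43.5 CPM at day 3 (log2 1.00, 0.50 to 1.46). Epidermis-like nuclei were higher as well, with 58.9 CPM against 36.3 CPM at day 4 (log2 0.68, 0.36 to 1.00) and 66.3 CPM against 42.4 CPM at day 3 (log2 0.64, 0.30 to 0.96). Cortex- and mesophyll-like nuclei were lower at both days, with 19.8 CPM against 44.8 CPM at day 4 (log2 -1.14, -1.64 to -0.66) and 33.2 CPM against 47.9 CPM at day 3 (log2 -0.51, -0.90 to -0.15). The floral meristem-like cluster of day 4 was led by genes that include UGT74E2, which encodes a glycosyltransferase, the transporter gene ABCB4 and the P450 gene CYP81D8, and that of day 3 by ABCB4, REM34, PAN and PI. Levels of AOX1A, a mitochondrial alternative oxidase induced by stress, were also high in the same classes: 532 CPM against 233 CPM in floral meristem-like nuclei at day 4, 246 CPM against 122 CPM at day 3, and in epidermis-like nuclei 419 CPM against 231 CPM at day 4 and 210 CPM against 116 CPM at day 3. AOX1A was picked after values were seen. Over the 19 clusters with at least 100 nuclei, its pattern was the most like that of GID1B (r = 0.864). Clusters and classes come from the same nuclei, so the AOX1A class levels and this likeness are not separate observations. UGT74E2 was higher in floral meristem-like nuclei, at 277 CPM against 47.9 CPM at day 4 and 46.2 CPM against 18.5 CPM at day 3. In epidermis-like nuclei it had 62.7 CPM against 74.1 CPM at day 4 and 31.0 CPM against 18.1 CPM at day 3. Cortex- and mesophyll-like nuclei, where GID1B was low, had 63.9 CPM against 73.8 CPM at day 4 and 34.8 CPM against 16.4 CPM at day 3. The part of stress genes in the GID1B pattern was not tested. In day 3 barcodes of at most 100 UMIs, GID1B stood at 25.2 CPM (17.0 to 36.0), below the 45.3 CPM of the nuclei.

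GID1C had 153 UMIs (15.0 CPM, 12.7 to 17.6) at day 4 and 143 UMIs (12.9 CPM, 10.9 to 15.2) at day 3, a log2 ratio of 0.20 (-0.11 to 0.52). S phase-like nuclei were low at both days: 7 UMIs and 6.01 CPM against 16.2 CPM at day 4 (log2 -1.29, -2.35 to -0.32), and 6 UMIs and 5.20 CPM against 13.8 CPM at day 3 (log2 -1.26, -2.38 to -0.23). In floral meristem-like nuclei GID1C was at 23.3 CPM against 14.0 CPM at day 4 (log2 0.69, 0.05 to 1.29), and at day 3 the interval included 0 (24.2 against 12.4 CPM). As a share of all counted receptor UMIs, GID1A made up 50.6% at day 4 and 45.9% at day 3, GID1B 36.0% at day 4 and 42.1% at day 3, and GID1C 13.4% at day 4 and 11.99% at day 3. Cortex- and mesophyll-like nuclei held the most GID1A, 63.5% of receptor UMIs at day 4 and 56.8% at day 3. GID1B was the largest share in epidermis-like nuclei (47.4% at day 4 and 54.5% at day 3) and in floral meristem-like nuclei (44.1% at day 4 and 58.8% at day 3), but at day 4 its intervals overlapped those of GID1A in both classes. At day 3 it was also the largest share in G2/M-like (47.7%) and S phase-like nuclei (48.9%), again with overlapping intervals.

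**Figure D3:**
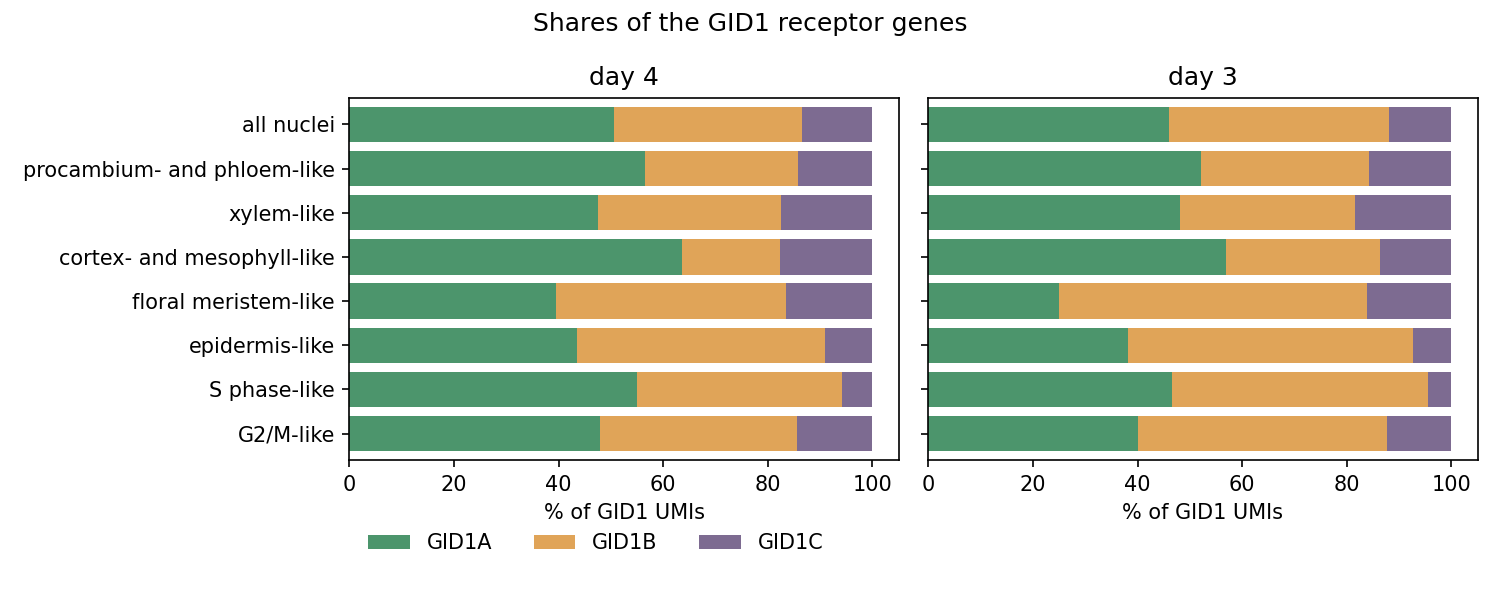
Percent of the counted GID1 UMIs that came from GID1A, GID1B and GID1C in each class, with the day 4 panel left of the day 3 panel. GID1B made up 44.1% at day 4 and 58.8% at day 3 in floral meristem-like nuclei.

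RGA, the DELLA gene with the most UMIs, had 828 UMIs (81.2 CPM, 75.7 to 86.9) at day 4 and 1018 UMIs (91.8 CPM, 86.3 to 97.7) at day 3, a log2 ratio of -0.18 (-0.31 to -0.04). It was higher in procambium- and phloem-like nuclei, at 109 CPM against 76.6 CPM at day 4 (log2 0.50, 0.25 to 0.76) and 135 CPM against 85.6 CPM at day 3 (log2 0.65, 0.42 to 0.88). In epidermis-like nuclei it was lower, at 62.1 CPM against 85.4 CPM at day 4 (log2 -0.45, -0.74 to -0.17) and 67.1 CPM against 95.3 CPM at day 3 (log2 -0.50, -0.82 to -0.19). Both directions held at both days. RGA was counted in 8.05% of day 4 nuclei and 8.46% of day 3 nuclei after thinning.

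GAI, whose deletion allele is the classic gibberellin-insensitive dwarf, had 327 UMIs (32.1 CPM, 28.7 to 35.7) at day 4 and 364 UMIs (32.8 CPM, 29.6 to 36.4) at day 3. G2/M-like nuclei were low, with 20.9 CPM against 35.1 CPM at day 4 (log2 -0.72, -1.18 to -0.29) and 19.0 CPM against 36.4 CPM at day 3 (log2 -0.90, -1.37 to -0.46). Xylem-like nuclei had the highest level at each day, with 53.3 CPM against 30.5 CPM at day 4 (log2 0.78, 0.25 to 1.28). At day 3 they had 47.1 CPM against 32.0 CPM, and the interval included 0 (log2 0.54, -0.04 to 1.08). They were not apart from the next class at day 4 (log2 0.27, -0.33 to 0.84) or day 3 (log2 0.10, -0.76 to 0.97). Cortex- and mesophyll-like nuclei had 44.1 CPM at day 4, and 41.4 CPM against 31.0 CPM at day 3 (log2 0.41, 0.04 to 0.76).

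RGL1 and RGL2, which were named for their likeness to RGA and of which RGL2 is known for holding back seed germination, were counted less often. RGL1 had 147 UMIs (14.4 CPM) at day 4 and 201 UMIs (18.1 CPM) at day 3, a log2 ratio of -0.31 (-0.61 to -0.02), and no class differed from the other nuclei beyond counting error (11.2 to 16.8 CPM at day 4 and 14.7 to 24.8 CPM at day 3). RGL1 stood higher in the day 3 barcodes of at most 100 UMIs, at 27.7 CPM (19.1 to 38.9), than in day 3 nuclei. RGL2 had 121 UMIs (11.9 CPM) at day 4 and 123 UMIs (11.1 CPM) at day 3. At day 4 it was higher in G2/M-like nuclei, at 18.2 CPM against 10.1 CPM (log2 0.78, 0.24 to 1.31), and at day 3 the interval included 0 (12.8 against 10.7 CPM, log2 0.24). The fifth DELLA gene, RGL3, is not a member and had 25 UMIs at day 4 and 69 at day 3 (log2 -1.07, -1.58 to -0.54). Of the DELLA UMIs, RGA gave 57.2% at day 4 and 57.4% at day 3, GAI 22.6% at day 4 and 20.5% at day 3, RGL1 10.2% at day 4 and 11.3% at day 3, and RGL2 8.36% at day 4 and 6.93% at day 3.

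Taken by class, at most 3 of the 8 members were at least 1.5-fold higher than in the other nuclei, and at most 2 were lower. Most of these calls came from GA20ox1, GID1B and RGL2. The RGL2 calls in xylem-like nuclei rested on 4 UMIs at day 4 and 2 at day 3. That in floral meristem-like nuclei at day 3 rested on 8 UMIs, and the intervals of these RGL2 calls include 0. The RGL2 calls in epidermis-like nuclei also rested on few UMIs, 15 at day 4 and 9 at day 3. In epidermis-like nuclei 1 of the 8 members (GID1B) was at least 1.5-fold higher at each day (6.09% of genes at day 4, 6.59% at day 3), and 2 (RGL2 and GA20ox1) were lower (12.8% at day 4, 10.8% at day 3). In procambium- and phloem-like nuclei 1 (GA20ox1) was higher at day 4 (7.75%) and 2 (RGA and GA20ox1) at day 3 (7.42%), with 0 lower (11.6% at day 4, 9.25% at day 3). In xylem-like nuclei 1 (GAI) was higher at day 4 (8.19%) and 0 at day 3 (8.92%), with 2 lower at day 4 (RGL2 and GA20ox1, 18.5%) and 2 at day 3 (RGL2 and GID1B, 19.3%). In cortex- and mesophyll-like nuclei 0 were higher at day 4 (10.6%) and 1 (GA20ox1) at day 3 (11.8%), with 1 lower at day 4 (GID1B, 13.8%) and 0 at day 3 (12.4%). Floral meristem-like nuclei had 2 higher at day 4 (GID1B and GID1C, 5.58%) and 3 at day 3 (RGL2, GID1B and GID1C, 11.3%), with 1 lower at each day (GA20ox1, 12.7% at day 4 and 18.4% at day 3). S phase-like nuclei had 0 higher (3.83% at day 4, 4.80% at day 3), with 1 lower at day 4 (GID1C, 11.5%) and 2 at day 3 (GA20ox1 and GID1C, 10.0%). G2/M-like nuclei had 1 higher at day 4 (RGL2, 5.80%) and 0 at day 3 (5.62%), with 2 lower at each day (GAI and GA20ox1, 14.7% at day 4 and 13.2% at day 3). The 411 unnamed day 3 nuclei had 0 higher (11.9%) and 1 lower (GA20ox1, 34.6%).

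**Figure D4:**
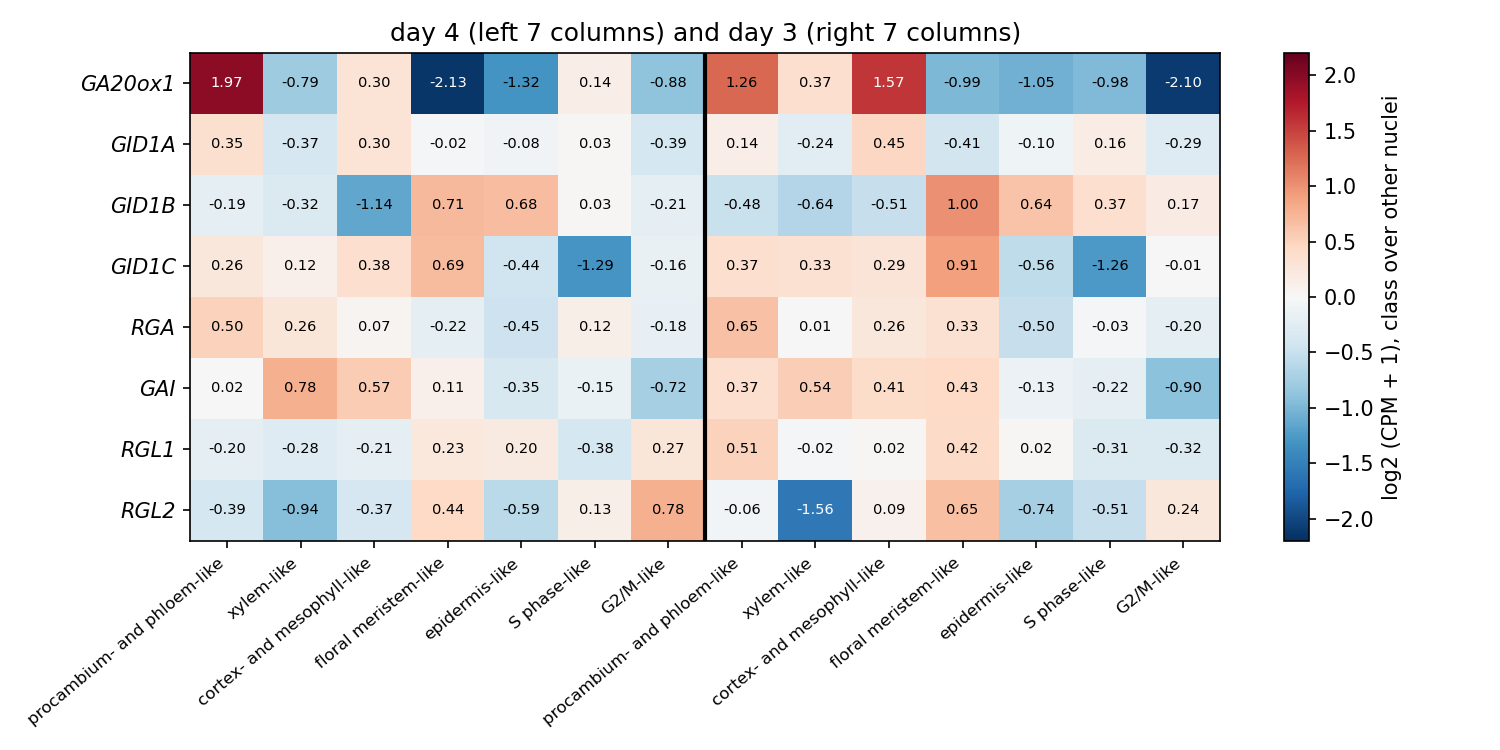
Log2 ratio of each class over the other nuclei for the 8 members with at least 200 UMIs, with the day 4 panel left of the day 3 panel. GA20ox1 in procambium- and phloem-like nuclei is at 1.97 at day 4 and 1.26 at day 3, and GID1B in floral meristem-like nuclei at 0.71 at day 4 and 1.00 at day 3.

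Nuclei with a UMI of STM or KNAT1 had more GAI than nuclei without either: 39.8 CPM against 24.9 CPM at day 4 (log2 0.66, 0.34 to 0.98) and 42.5 CPM against 22.3 CPM at day 3 (log2 0.90, 0.59 to 1.22). GA20ox1 was also higher in them at day 4, at 24.5 CPM against 11.96 CPM (log2 0.98, 0.56 to 1.41), and at day 3 the interval included 0 (15.4 against 12.1 CPM, log2 0.32). GID1B was lower in them at both days, at 34.1 CPM against 46.3 CPM at day 4 (log2 -0.43, -0.72 to -0.15) and 40.3 CPM against 50.8 CPM at day 3 (log2 -0.33, -0.58 to -0.08). Nuclei with these KNOX UMIs were deeper, with a median of 2061 against 1705 UMIs at day 4 and 2141 against 1713 at day 3. The part of depth in these values was not tested. The contrasts pool nuclei of all classes, between which these 3 genes differed, and do not separate the part of class. At day 4 GAI had 20.9 CPM in G2/M-like and 53.3 CPM in xylem-like nuclei. GA20ox1 had 3.72 CPM in floral meristem-like and 52.1 CPM in procambium- and phloem-like nuclei. GID1B had 19.8 CPM in cortex- and mesophyll-like and 62.4 CPM in floral meristem-like nuclei. In nuclei with both AP3 and PI, the genes that mark petal and stamen whorls, GA20ox1 had 5 UMIs at day 3 (2.38 CPM against 20.0 CPM in nuclei with neither, log2 -2.64, -3.60 to -1.64). At day 4 the same contrast gave a log2 ratio of -0.16 (-1.04 to 0.62), with 13 UMIs in 4 nuclei. Nuclei with both genes were deeper as well, with a median of 2637 UMIs against 1749 at day 3. AP3 and PI are also among the markers behind the floral meristem-like name, and that class had 6.60 CPM of GA20ox1 at day 3.

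Transcripts of 2 members were rarely counted in the same nucleus. With each nucleus thinned to 1000 UMIs, any of the 10 genes was found in 23.2% of day 4 nuclei and 23.6% of day 3 nuclei. A single DELLA gene was found in 12.6% of nuclei at day 4 and 12.7% at day 3, and 24 nuclei at each day held 2 of them. A DELLA gene and a receptor were found together in 64 nuclei at day 4 and 54 at day 3. At least 10 nuclei with both genes were expected by independence only for RGA with GAI, GID1A or GID1B, and those 6 ratios of observed to expected over both days lay between 0.692 and 1.18, with intervals that include 1. GID1A and GID1B at day 3, with 9.18 nuclei expected, fell just short of that limit and were found together in 17 (ratio 1.85, 1.08 to 2.96), against 1.09 at day 4.

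The remaining gibberellin genes were described from lists of early synthesis, other oxidases, inactivation, other signalling and response genes, 42 in all. Of these, 17 had at least 200 UMIs, 9 had no UMI, and 0 of the 17 were past 1.5-fold between days, against 7.66% of all genes, with a median log2 ratio of 0.19. RGL3, with too few UMIs for that count, was past it. All 4 early synthesis genes with enough UMIs had intervals above 0 with scaling by total UMIs, and 2 of them, KO and KAO1, had intervals that include 0 with TMM and with median-of-ratios scaling. KAO2, which feeds the oxidases with GA12, stood at 94.1 CPM at day 4 and 64.1 CPM at day 3 (log2 0.55, 0.41 to 0.69), KS at 70.5 CPM at day 4 and 56.2 CPM at day 3 (log2 0.32, 0.17 to 0.48), KAO1 at 85.0 CPM at day 4 and 73.0 CPM at day 3 (log2 0.22) and KO at 71.9 CPM at day 4 and 62.8 CPM at day 3 (log2 0.19). SLY1, the F-box protein that marks DELLA proteins, stood at 25.9 CPM at day 4 and 35.6 CPM at day 3 (log2 -0.45, -0.67 to -0.23). The response gene GASA14 had a log2 ratio of -0.41 (-0.52 to -0.29), and GASA4 of 0.00. GAMT2, which methylates gibberellins, was higher in cortex- and mesophyll-like nuclei, at 80.4 CPM against 14.3 CPM at day 4 (log2 2.41, 2.07 to 2.76) and 84.3 CPM against 18.5 CPM at day 3 (log2 2.13, 1.82 to 2.44). ELA1, a P450 that inactivates gibberellins, was higher there too, at 38.6 CPM against 11.7 CPM at day 4 (log2 1.64, 1.20 to 2.08) and 48.5 CPM against 15.0 CPM at day 3 (log2 1.63, 1.25 to 2.00).

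**Figure D5:**
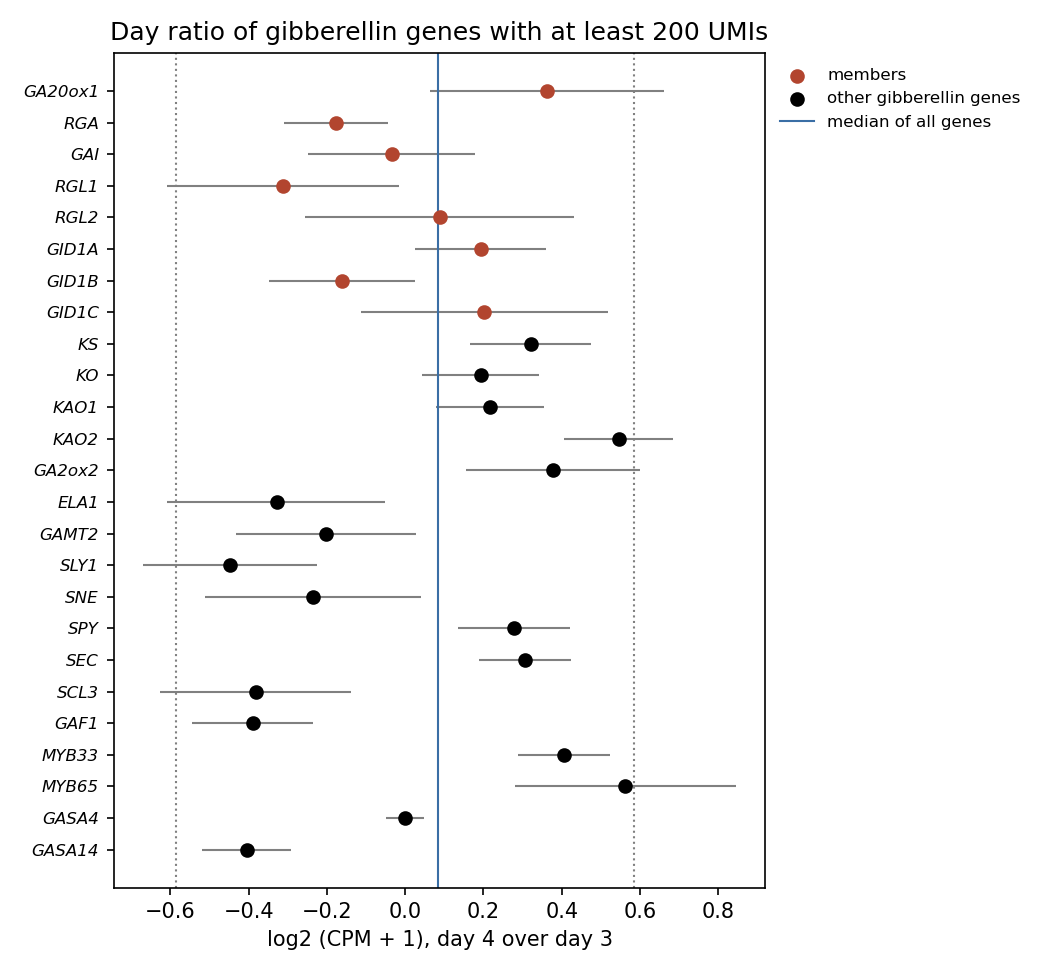
Log2 ratio of day 4 over day 3 for the 8 members and the 17 other gibberellin genes with at least 200 UMIs, with 95% counting intervals, a line at the median of all genes (0.08) and dotted lines at 1.5-fold. All 25 points lie inside the dotted lines, with KAO2 at 0.55 and SLY1 at -0.45.

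By likeness over the 19 clusters with at least 100 nuclei, the gene closest to GA20ox1 was FRO8 (r = 0.878), followed by BOR1 (r = 0.876). WOL, a cytokinin receptor, was the third closest to RGA (r = 0.824). GAI was most like HAOX1 (r = 0.877). These are descriptions over clusters that share libraries, and carry no test.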

How the data were processed

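The authors deposited raw UMI counts per gene and barcode, made with Cell Ranger 3.1.0 and the Araport11 annotation. The genome build is not given in the sources used here, so no coordinates are printed. The day 4 file holds 7716 called barcodes, and the day 3 file holds every barcode (652188 with a UMI). Libraries totalled 13590463 UMIs at day 4 and 31908972 at day 3, before barcodes were filtered. Organelle genes were removed (2.63% of UMIs in kept nuclei at day 4, 2.85% at day 3), then barcodes with under 1000 nuclear genes. Files were read with Python 3.11.15, NumPy 2.4.6, SciPy 1.17.1 and pandas 2.3.3. Each library was clustered in R 4.3.3 with Seurat 5.3.0 and sctransform 0.4.2 (3000 variable genes without the gibberellin and KNOX genes, 9 components, resolution 0.04). Clusters were named from marker lists, needing at least 3 markers at least 2-fold higher. Merging procambium with phloem and cortex with mesophyll was set after the clusters were seen. Doublets were not removed. Alternatives left out the 8% of nuclei with most UMIs, changed the gene minimum (500 or 1500), pseudocount (10 CPM), scaling (edgeR 4.0.16 for TMM), thinning and clustering.

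Named genes were all 10 members and those other gibberellin and KNOX genes with at least 200 UMIs over both libraries; RGL3 is named besides. Likeness lists gave the 3 closest genes. AOX1A, UGT74E2, the joint cluster, the joined vascular-like class and the leaving out of nuclei with 3 or more UMIs of a gene were chosen after values were seen. The members and lists were chosen with earlier results of these data known. Columns of other samples numbered 0. The interval code was tested on simulated data.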

Additional observations from a re-analysis of the deposited data

Results flagged for a closer look

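Of 150 contrasts set side by side between the days, 1 had counting intervals that did not overlap and opposite signs. RGL2 in nuclei with a UMI of STM or KNAT1 over nuclei without either had a log2 ratio of -0.85 at day 4 (-1.37 to -0.33) and 0.34 at day 3 (-0.16 to 0.83). The counts behind it were 40 UMIs in nuclei with and 81 in nuclei without at day 4, and 72 with and 51 without at day 3. The difference between days was not tested, since each day had 1 library.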

How the results depend on the processing

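No paired analysis was possible because each day had 1 library, and for the same reason no library could be left out. Class ratios of GA20ox2 are not given and were not recomputed. GA20ox1 in day 4 procambium- and phloem-like nuclei had a log2 ratio of -0.27 with gibberellin genes kept among the variable genes, where the xylem-like class had 1.68 and both as 1 vascular-like class 1.54. With both libraries clustered together, the vascular names covered only a xylem-like cluster, where GA20ox1 had -0.34 at day 4, while unnamed cluster 6 held 74 of its UMIs. GA3ox1 in day 4 S phase-like nuclei had -0.64 without nuclei of 3 or more UMIs, which removes the 1 nucleus that held all 5, so that value is fixed by the filter. The members' median log2 between days was -0.0731 with median-of-ratios scaling, -0.0979 with at least 1500 nuclear genes and -0.0805 without the 8% deepest nuclei, and with at least 1500 genes 1 member passed 1.5-fold (GA20ox1, 0.70), against 11.4% of genes. With a pseudocount of 10 CPM 3.22% of all genes passed 1.5-fold, and the median of all genes was -0.0196 with median-of-ratios scaling. The other gibberellin genes' median was 0.0888 with median-of-ratios scaling, 0.0873 with thinning to 1000 UMIs and 0.0929 without the deepest 8%. Member and class pairs at least 1.5-fold higher at day 4 numbered 3 with joint clustering and 3 with a pseudocount of 10 CPM, against 6. Pairs lower numbered 4 at day 4 and 4 at day 3 with that pseudocount, against 9 at each day, and 14 at day 3 without the deepest 8%. GA3ox1, GA20ox2 and every class with under 10 UMIs are limited by depth.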
